A study of Mus musculus with 6 samples.

Results

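The 10 genes described here encode proteins of the junctions and the surface of endothelial cells: Pecam1, Cdh5, Cldn5, Esam, Emcn, Jam2, Tjp1, Cd93, Egfl7 and Robo4. They were chosen by name, and each was found as 1 of the 23473 RefSeq gene rows of the table. The libraries are bulk RNA-seq of tumor endothelial cells (TECs) from Lewis lung carcinoma (LLC) tumors of C57BL/6 mice aged 8 weeks, 3 labelled Ctrl (genotype wild type) and 3 of genotype NICeCA, each from a mouse of its own by the study's methods and numbered here as in their titles. NICeCA mice carry Cdh5 cre ERT2 and a Rosa26 allele in which a floxed stop precedes the Notch1 intracellular domain, so that tamoxifen switches on Notch signaling in cells that express Cdh5. The sources used here do not say whether the Ctrl mice carried the Cre transgene or received tamoxifen. The labels speak of differing days of dissection, while the study's methods give a single day after inoculation for these libraries. Cells were captured with beads against CD31, the product of Pecam1. The comparison of NICeCA with Ctrl asks how gene expression of TECs differs under endothelial Notch activation. In this model 3 of the 10 genes also belong to the method, since Cdh5 sequences drive the Cre, the Pecam1 protein is what the beads bind, and staining for endomucin, the product of Emcn, was used to check the purity of the captured cells.

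Endothelial cells are held together by adherens junctions, built on VE-cadherin (Cdh5) and its catenins, and by tight junctions, built on claudins, with Cldn5 as the leading endothelial claudin, on junctional adhesion molecules and on scaffold proteins such as that of Tjp1. Pecam1 and Esam are immunoglobulin-type adhesion molecules of the same cell borders, where leukocytes also pass. Emcn encodes a sialomucin of the luminal surface, Cd93 a C-type lectin-like receptor, Robo4 an endothelial receptor linked to barrier stability, and Egfl7 a secreted protein of the vessel wall whose gene hosts miR-126. Tight, leak-resistant junctions are a feature by which normal vessels differ from most tumor vessels.

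Values are RPKM, reads per kilobase of the gene model, scaled to the reads of the library, and differences are log2 fold changes of RPKM + 1, NICeCA over Ctrl, from limma with its mean-variance trend, given with standard errors (SE). Of 12320 RefSeq rows with a mean of at least 1 RPKM, 5.88% were called higher and 7.68% lower in NICeCA TECs at an adjusted p under 0.05, and the median log2 fold change of all of them was -0.05. Libraries held 27793301 to 30769916 reads on RefSeq rows, and no member had fewer than 518 reads in any library, so counting error is small beside the spread between mice. Ctrl replicate 1 was the highest Ctrl library for all 10 genes, and values with and without it are given.

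Of the 10 genes, 1 was called higher (Cd93) and 0 lower (limma, adjusted p under 0.05 over all tested rows). At an unadjusted p under 0.05, 4 were higher and 0 lower, where 14.4% of all tested rows were higher, and limma voom on the recovered reads called 1 higher and 0 lower (5.54% of all rows higher). The log2 fold change was positive for 9 of the 10, with a median of 0.64, and 44.7% of all tested rows had a positive value. The groups did not overlap, with NICeCA above Ctrl, for 2 genes (Cd93 and Emcn), as for 16.5% of all tested rows. In the other 8 the groups overlapped. All 3 NICeCA libraries lay above Ctrl replicates 2 and 3 for 9 of the 10 genes, and Ctrl replicate 1 lay above the lowest NICeCA library for 8.

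**Figure D1:**
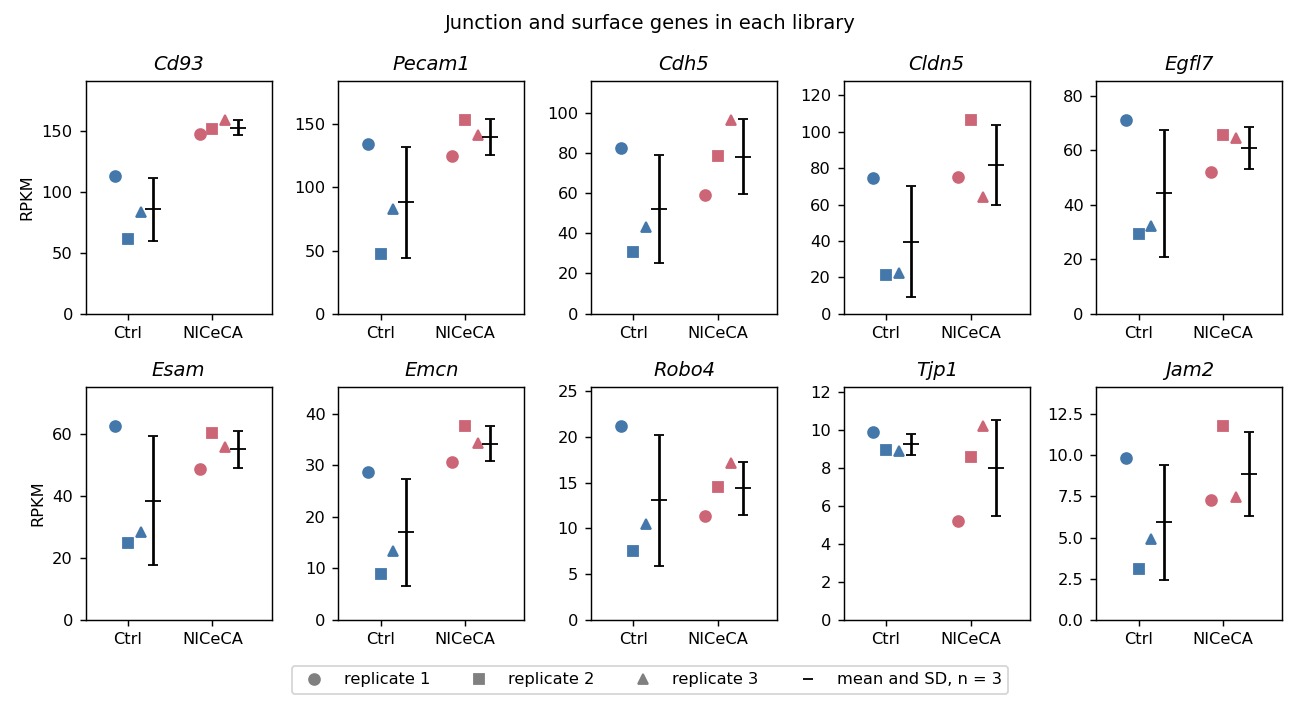
RPKM of each gene (vertical axis, starting at 0, a scale of its own in each panel) in the Ctrl (blue) and NICeCA (red) libraries, ordered by mean level, with the replicate number as the symbol and the mean and SD (n = 3) in black. Cd93 and Emcn are the 2 genes whose NICeCA libraries all lie above all Ctrl libraries, and Ctrl replicate 1 (blue circle) is the highest Ctrl library in every panel.

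Upstream sequences are shown for the 5 genes for which a window was at hand, and were not chosen by the size of the difference. They are Cldn5 and Emcn, with the largest differences of the 10, Robo4 and Tjp1, with the smallest, and Egfl7. RefSeq promoter windows (GRCm38.p6) matched these 5 of the 10 genes, and the 250 bases before the annotated start are given 5′ to 3′, for Egfl7 those of the outermost of 3 starts. Capitals mark TGGGAA, the core bound by the Notch partner RBPJ, and GGAAG, part of the motif bound by ETS factors, on either strand; the pair can overlap in TGGGAAG.
Cldn5, chr16:18776597-18776846, plus strand: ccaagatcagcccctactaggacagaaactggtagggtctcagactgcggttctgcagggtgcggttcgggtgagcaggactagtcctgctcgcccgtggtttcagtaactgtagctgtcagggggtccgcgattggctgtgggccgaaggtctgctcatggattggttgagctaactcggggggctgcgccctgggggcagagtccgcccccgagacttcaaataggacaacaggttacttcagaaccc
Emcn, chr3:137340828-137341077, plus strand: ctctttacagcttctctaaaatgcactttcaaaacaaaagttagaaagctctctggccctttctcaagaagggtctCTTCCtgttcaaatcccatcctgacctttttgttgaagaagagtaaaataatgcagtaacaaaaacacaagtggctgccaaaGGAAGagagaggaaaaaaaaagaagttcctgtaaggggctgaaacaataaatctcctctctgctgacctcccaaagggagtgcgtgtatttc
Egfl7, chr2:26580833-26581082, plus strand: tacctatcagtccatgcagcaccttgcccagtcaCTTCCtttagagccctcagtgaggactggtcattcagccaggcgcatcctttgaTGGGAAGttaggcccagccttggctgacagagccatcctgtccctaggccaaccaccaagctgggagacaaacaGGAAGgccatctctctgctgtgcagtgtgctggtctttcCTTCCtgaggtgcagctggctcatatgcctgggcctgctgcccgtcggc
Robo4, chr9:37401722-37401971, plus strand: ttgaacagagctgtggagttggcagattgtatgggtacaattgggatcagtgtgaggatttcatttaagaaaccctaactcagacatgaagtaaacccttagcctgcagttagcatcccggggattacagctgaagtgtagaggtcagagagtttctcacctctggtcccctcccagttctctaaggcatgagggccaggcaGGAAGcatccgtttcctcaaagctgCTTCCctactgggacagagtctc
Tjp1, chr7:65371245-65371494, minus strand: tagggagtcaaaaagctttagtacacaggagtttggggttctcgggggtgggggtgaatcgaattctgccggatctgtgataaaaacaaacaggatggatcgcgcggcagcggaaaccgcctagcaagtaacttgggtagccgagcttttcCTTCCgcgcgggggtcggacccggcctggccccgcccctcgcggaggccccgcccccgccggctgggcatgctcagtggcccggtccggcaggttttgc
TGGGAA was found in 1 of the 7 windows of these genes, that of Egfl7, and in 21.6% of all 32851 windows. GGAAG was found in 5 of the 7 and in 64.1% of all windows, and the Cldn5 window held neither. The letters AGATAA, known from sites of GATA factors, were in 0 of the 7 and in 9.99% of all windows. The box TATAAA was in 0 of the 7 and in 12.4% of all windows. All counts are over both strands.

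Among the tight junction genes, Cldn5 (chromosome 16, 18776847 to 18778262, plus strand), a gene without introns in this table, had 74.6, 21.2 and 22.4 RPKM in Ctrl replicates 1 to 3 and 74.9, 107 and 64.0 RPKM in the NICeCA libraries. Ctrl replicate 1 was about as high as NICeCA replicate 1 and above NICeCA replicate 3, while the other Ctrl libraries were far lower. The means were 39.4 ± 30.5 and 81.8 ± 22.1 RPKM (SD, n = 3 each), and the log2 fold change of 1.25, the largest of the 10, did not pass the test (SE 0.45, adjusted p = 0.094 in limma). Jam2 (chromosome 16, 84774123 to 84826375, plus strand), a junctional adhesion molecule, had 9.83, 3.08 and 4.90 RPKM in Ctrl and 7.28, 11.8 and 7.48 RPKM in NICeCA libraries, with overlapping groups and a log2 fold change of 0.59 (SE 0.34, adjusted p = 0.25 in limma).

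Tjp1 (chromosome 7, 65296165 to 65371244, minus strand), the scaffold that links tight junction proteins to actin, was the only one of the 10 with a negative log2 fold change. It had 9.90, 8.93 and 8.92 RPKM in Ctrl and 5.22, 8.55 and 10.2 RPKM in NICeCA libraries. The Ctrl libraries were close together, and the NICeCA libraries lay on both sides of them. The log2 fold change was -0.23 (SE 0.21, adjusted p = 0.46 in limma, 95% confidence interval -0.71 to 0.26), and it was 0.015 without NICeCA replicate 1 and 0.026 with each library's length trend removed.

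In the other 9 genes Ctrl replicate 2 was the lowest library, whereas in Tjp1 it was NICeCA replicate 1. Over the 6 libraries the 36 pairs among those 9 genes had Pearson r of log2(RPKM + 1) between 0.68 and 1.00 with a median of 0.93, and the 9 pairs with Tjp1 between -0.23 and 0.35. These points share their libraries and the scale of each, and are a description. Of 3 FANTOM3 transcript rows that lie wholly within Tjp1 introns, with 8 to 114 reads per library, 2 were lower in all 3 NICeCA libraries (exact permutation test, two-sided p = 0.1, the smallest it can give with 3 against 3). The share of all intronic rows in this state is not given here, so these 2 are not set apart from the others. Over all 8206 such intronic rows, the share of reads was 1.22% to 1.69% in Ctrl and 0.72% to 1.00% in NICeCA libraries, so the intronic share was lower in every NICeCA library. The part of this in the values of Tjp1 was not tested.

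Among the adherens junction and border genes, Cdh5 (chromosome 8, 104101625 to 104144502, plus strand), which encodes VE-cadherin, had 82.4, 30.9 and 43.3 RPKM in Ctrl and 59.2, 78.6 and 96.5 RPKM in NICeCA libraries. Ctrl replicate 1 was second only to NICeCA replicate 3, and the log2 fold change of 0.66 did not pass the test (SE 0.34, adjusted p = 0.20 in limma). Pecam1 (chromosome 11, 106654218 to 106715281, minus strand), the antigen of the capture beads, had 135, 47.5 and 82.6 RPKM in Ctrl and 125, 154 and 142 RPKM in NICeCA libraries. Its log2 fold change was 0.78 (SE 0.33, adjusted p = 0.13 in limma), with Ctrl replicate 1 between NICeCA replicates 1 and 3. Because Pecam1 protein selected the cells, its level is not independent of the capture. A FANTOM3 row over nearly the same exons, which reads the same fragments, had a log2 fold change of 0.78 as well.

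Esam (chromosome 9, 37528089 to 37538319, plus strand), an adhesion molecule of endothelial borders and platelets, had 62.4, 24.6 and 28.2 RPKM in Ctrl and 48.7, 60.3 and 55.6 RPKM in NICeCA libraries. The highest value of all was that of Ctrl replicate 1, and the log2 fold change was 0.62 (SE 0.32, adjusted p = 0.20 in limma). Robo4 (chromosome 9, 37402046 to 37414022, plus strand) lies 114066 bases before Esam on the same strand. It had 21.2, 7.51 and 10.5 RPKM in Ctrl and 11.4, 14.5 and 17.2 RPKM in NICeCA libraries. Here too Ctrl replicate 1 was highest, by a wider margin, and the difference of 0.23 (SE 0.33, adjusted p = 0.64 in limma, 95% confidence interval -0.53 to 0.99) turned to -0.070 without Ctrl replicate 2.

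Among the surface and secreted genes, Cd93 (chromosome 2, 148436651 to 148443535, minus strand) rose in NICeCA TECs. It had 113, 61.4 and 83.5 RPKM in Ctrl and 147, 152 and 159 RPKM in NICeCA libraries, so that every NICeCA library exceeded every Ctrl library. The means were 85.9 ± 25.9 and 153 ± 5.97 RPKM (SD, n = 3 each), a ratio of 1.78 and a log2 fold change of 0.87 (SE 0.21, adjusted p = 0.040 in limma). The call was kept without Ctrl replicate 1 (log2 fold change 1.08, limma adjusted p = 0.028) and lost without any other single library, at adjusted p from 0.063 to 0.15. It was also lost with no filter on low values (adjusted p = 0.075, 1.18% of all rows called higher), with quantile normalization (0.14, 3.62%), with the replicate number as a block (0.065, 2.65%) and with other endothelial genes taken into account (0.25 and 0.65, described later). Cd93 is also expressed by myeloid cells, and macrophage and neutrophil markers are given with the cell type markers.

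Emcn (chromosome 3, 137341078 to 137431069, plus strand) had 28.7, 8.90 and 13.4 RPKM in Ctrl and 30.6, 37.6 and 34.4 RPKM in NICeCA libraries. Every NICeCA library was above Ctrl, but NICeCA replicate 1 exceeded Ctrl replicate 1 by little. The means were 17.0 ± 10.4 and 34.2 ± 3.49 RPKM (SD, n = 3 each), and the log2 fold change of 1.12 did not pass the test over all genes (SE 0.35, adjusted p = 0.069 in limma).

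Egfl7 (chromosome 2, 26581056 to 26592682, plus strand) lies 77233 bases from Notch1, whose intracellular domain the transgene encodes. It had 71.2, 29.4 and 32.0 RPKM in Ctrl and 51.9, 65.5 and 64.7 RPKM in NICeCA libraries, with the highest value in Ctrl replicate 1 and a log2 fold change of 0.56 (SE 0.31, adjusted p = 0.23 in limma). Notch1 had means of 12.1 RPKM in Ctrl and 12.8 RPKM in NICeCA libraries and a log2 fold change of 0.11 (limma adjusted p = 0.71). The row of the miR-126 precursor within Egfl7 (chromosome 2, 26591357 to 26591429) had only 4 to 16 reads per library, and its log2 fold change of -0.05 (limma adjusted p = 0.94) is not a measure of the mature miRNA, which is shorter than the fragments of such libraries. The mature arm is shown as the product that Egfl7 hosts, from RefSeq (GRCm38.p6, chr2:26591402-26591423), with the seed, bases 2 to 8, in capitals.
mmu-miR-126a-3p: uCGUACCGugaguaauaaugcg

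By mean RPKM over the 6 libraries, the order was Cd93 (119), Pecam1 (114), Cdh5 (65.2), Cldn5 (60.6), Egfl7 (52.4), Esam (46.6), Emcn (25.6), Robo4 (13.7), Tjp1 (8.62) and Jam2 (7.39). The order of Pecam1 over Cdh5, Egfl7 over Esam, Esam over Emcn and Emcn over Robo4 was the same in all 6 libraries. Cd93 and Pecam1, Cdh5 and Cldn5, Cldn5 and Egfl7, and Tjp1 and Jam2 changed places between libraries and did not differ in level beyond their spread.

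Of the single libraries, Ctrl replicate 1 moved the calls most. Without it, 7 of the 10 genes were called higher (Cldn5, Emcn, Pecam1, Cd93, Cdh5, Esam and Egfl7), against 4.07% of 12309 tested rows, with a median log2 fold change of 1.04. The largest was that of Cldn5, at 1.83 (SE 0.22, adjusted p = 0.023 in limma), followed by Emcn at 1.55 (SE 0.19, adjusted p = 0.024 in limma). Jam2 and Robo4 remained short of the threshold (0.97 and 0.62, limma adjusted p = 0.055 and 0.089), and Tjp1 had -0.18 (limma adjusted p = 0.62). Of the 22 endothelial markers described next, 15 were called higher without it. With any other library left out, 0 of the 10 were called, while the share of all tested rows called higher was 1.99% and 7.41% without Ctrl replicates 2 and 3, and 0.727%, 0.138% and 4.09% without NICeCA replicates 1, 2 and 3. Without Ctrl replicate 2, which was the lowest library for 9 of the genes, the median log2 fold change was 0.36. The label of Ctrl replicate 1 does not set it apart from the other Ctrl libraries.

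**Figure D2:**
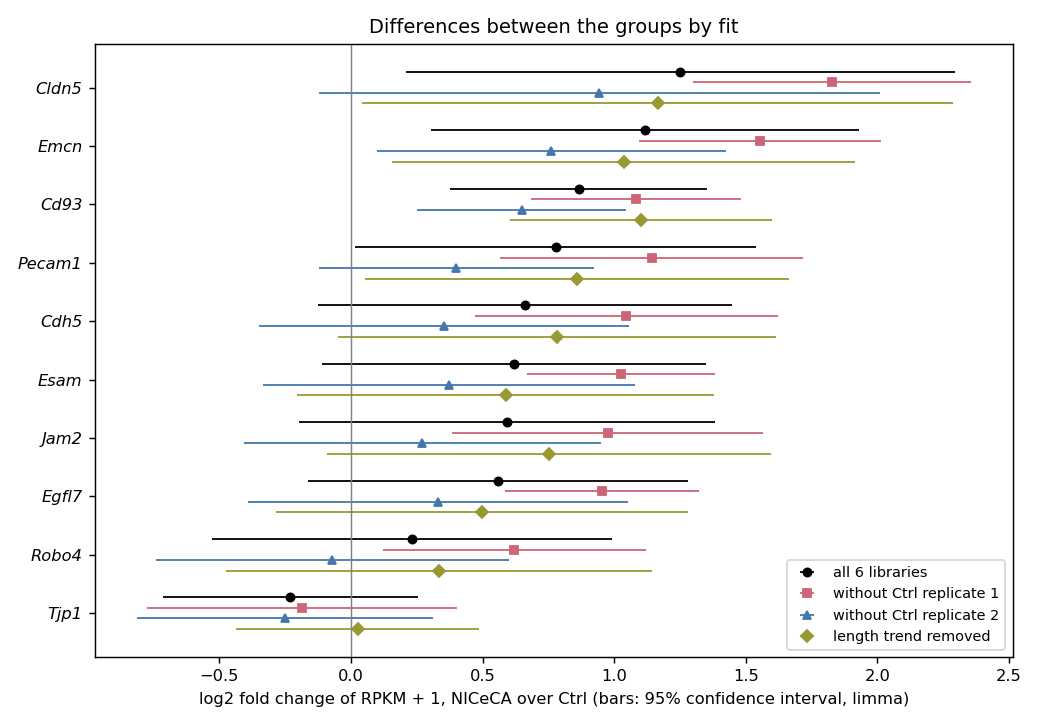
Log2 fold change of RPKM + 1 (horizontal axis, NICeCA over Ctrl) of each gene in limma fits of all 6 libraries (black), without Ctrl replicate 1 (red), without Ctrl replicate 2 (blue) and with the length trend removed (olive), with 95% confidence intervals. Without Ctrl replicate 1 the Cldn5 value moves from 1.25 to 1.83, while that of Tjp1 stays between -0.25 and 0.026 in all 4 fits.

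Other endothelial genes moved in the same libraries. In a list of 22 endothelial markers outside the 10, 2 were called higher (Flt1, log2 fold change 1.03, and Vwf, 1.15) and 0 lower, 22 of 22 had a positive log2 fold change, and the median was 0.62, beside 0.64 for the junction and surface genes. Their summed level was 286 to 683 RPKM in Ctrl and 533 to 697 RPKM in NICeCA libraries, with Ctrl replicate 1 the highest Ctrl library. In bulk RNA, a smaller share of endothelial cells and less RNA of these genes per cell cannot be told apart. The mean log2(RPKM + 1) of 16 markers that belong to none of the junction lists was 4.11, 3.0 and 3.33 in Ctrl and 3.87, 4.25 and 4.13 in NICeCA libraries. Over the 6 libraries, 9 of the genes had r between 0.87 and 0.99 with this mean, and Tjp1 had 0.02.

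When this mean was subtracted from each library, a choice made after seeing the data, 0 of the 10 genes were called in either direction (limma). An unadjusted p under 0.05 was found for 0 of them and, in either direction, for 3599 of all 12320 tested rows. At an adjusted p under 0.05, 0.398% of all tested rows were called higher and 4.61% lower. In this fit limma gave all 10 genes nearly the same SE, 0.45, whatever their own spread. Emcn, for one, had SDs of 0.24 in Ctrl and 0.05 in NICeCA libraries after the subtraction. The absence of calls therefore does not show that the 10 genes lacked a difference. The median of the 10 went from 0.64 to 0.04. Relative to the other endothelial genes, Emcn was still above Ctrl in all 3 NICeCA libraries (1.01 to 1.11 against 0.31 to 0.78), a state found in 1.21% of all tested rows, with a difference of 0.51 (SE 0.45, adjusted p = 0.39 in limma). Robo4 was below Ctrl in all 3 NICeCA libraries (-0.29 to 0.05 against 0.09 to 0.36), as were 25.2% of all tested rows, with a difference of -0.38 (limma adjusted p = 0.51). These shares, for Emcn and for Robo4, cover all tested rows, whose median difference in this fit was -0.66. No share was counted among endothelial genes alone, so neither gene is set apart from those. The difference of Cd93 was 0.26 (limma adjusted p = 0.65) and that of Cldn5 0.64 (0.29). Tjp1 had the difference of largest size, -0.84 (SE 0.45, adjusted p = 0.19 in limma), with overlapping groups. The median of all tested rows in this fit was -0.66, and Tjp1 did not follow the subtracted mean (r = 0.02). With the mean as a covariate the Tjp1 difference was -0.42 (limma adjusted p = 0.44). Pecam1 was at 0.17, and Cdh5, Esam, Jam2 and Egfl7 were between -0.05 and 0.06. With the mean as a covariate in place of the subtraction, 0 of the 10 and 0 of all 12320 rows were called (limma), and 2233 rows had an unadjusted p under 0.05, Cd93 (higher) and Robo4 (lower) among them. The covariate leaves few degrees of freedom with 6 libraries.

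**Figure D3:**
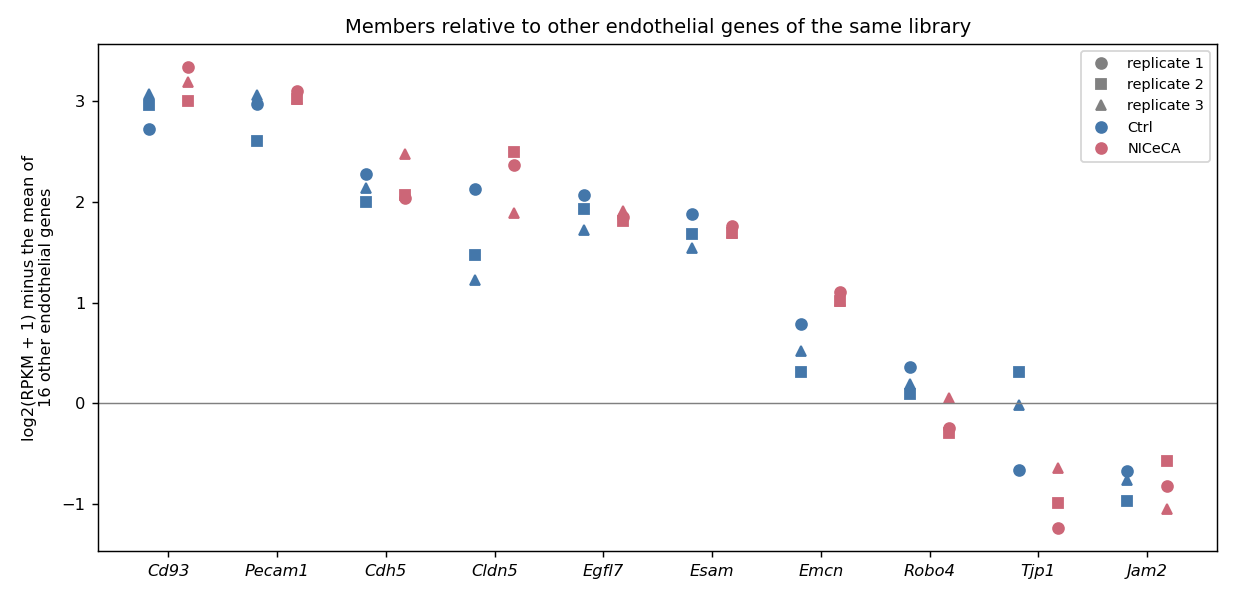
Log2(RPKM + 1) of each gene minus the mean of 16 other endothelial genes in the same library (vertical axis), for Ctrl (blue) and NICeCA (red) with the replicate number as the symbol. The groups lie apart for Emcn (NICeCA higher) and Robo4 (NICeCA lower) and overlap for the other 8.

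The rows whose pattern over the 6 libraries was most like the mean of the 10 genes, of 12307 compared, were Adamts9 (Pearson r = 0.995), C1qtnf9 (0.993), Mmrn2 (0.991), Eltd1 (0.990) and Tie1 (0.989). Mmrn2, an endothelial matrix protein that binds CD93, had 40.6, 17.6 and 22.2 RPKM in Ctrl and 36.8, 49.9 and 47.0 RPKM in NICeCA libraries. Tie1, an endothelial receptor, had 37.5, 13.4 and 14.9 RPKM against 28.6, 38.8 and 34.3 RPKM. None of the 5 was called (limma adjusted p from 0.094 to 0.23), and Ctrl replicate 1 lay within or above the NICeCA range in each. Both follow largely from picking these rows by their likeness to the 10 genes, and are a description.

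The partners of these genes did not move as a block. In a list of 19 adherens junction partners, 17 were tested, 0 were called higher and 3 lower, and the median log2 fold change was 0.13. At an unadjusted p under 0.05, 1 was higher and 4 were lower, where 21.1% of all tested rows were lower. By limma voom, 0 were called higher and 3 lower, where 10.9% of all rows were called lower. Ctnnd1, the catenin that holds VE-cadherin at the membrane, fell from 21.5, 20.5 and 22.0 RPKM in Ctrl to 15.3, 15.7 and 15.6 RPKM in NICeCA libraries (log2 fold change -0.43, SE 0.11, adjusted p = 0.040 in limma). Mllt4, which encodes the nectin-binding scaffold afadin, fell from 16.5, 18.8 and 14.5 to 8.62, 10.1 and 11.7 RPKM (log2 fold change -0.66, limma adjusted p = 0.036). Pvrl1, which encodes a nectin, fell from 2.61, 2.84 and 4.86 to 1.76, 1.64 and 1.18 RPKM (log2 fold change -0.79, limma adjusted p = 0.046). With a single library left out, Ctnnd1 and Pvrl1 lost the call in 6 of 6 fits (limma adjusted p from 0.051 to 0.16), and Mllt4 in 4 of 6, all but those without Ctrl replicate 3 and without NICeCA replicate 3. The most abundant partner, beta-catenin (Ctnnb1), had 96.9 to 123 RPKM in Ctrl and 123 to 134 RPKM in NICeCA libraries and was not called (log2 fold change 0.22, limma adjusted p = 0.28), nor was Rap1b, a small GTPase of junction control (0.51, limma adjusted p = 0.12).

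Of 18 tight junction partners, 12 were tested, 2 were called higher and 1 lower, and the median was -0.05. Lsr, a protein of tricellular contacts, rose from 7.02, 6.29 and 9.25 RPKM in Ctrl to 11.7, 11 and 11.8 RPKM in NICeCA libraries (log2 fold change 0.57, limma adjusted p = 0.044). Cgnl1, a cingulin-like junction protein, rose from 5.27, 5.69 and 5.52 to 7.62, 7.74 and 9.72 RPKM (log2 fold change 0.52, limma adjusted p = 0.040). Pard3, a polarity scaffold that binds junctional adhesion molecules, fell from 4.57, 7.76 and 4.46 to 1.10, 1.42 and 2.61 RPKM (log2 fold change -1.29, SE 0.25, adjusted p = 0.028 in limma). With a single library left out, Cgnl1 lost the call in 6 of 6 fits (limma adjusted p from 0.058 to 0.14), Lsr in 5 of 6, all but that without Ctrl replicate 3, and Pard3 in 3 of 6, those without Ctrl replicate 2 and NICeCA replicates 1 and 2. With the mean of the 16 endothelial genes subtracted, Lsr and Cgnl1 turned to -0.039 and -0.087, in a fit where the median of all tested rows was -0.66. With that mean as a covariate they stayed at 0.57 and 0.55, and neither was called (limma adjusted p = 0.24 and 0.22). Ybx3 and F11r, the 2 most abundant of the others, were not called (log2 fold changes -0.57 and 0.41, limma adjusted p = 0.099 and 0.31).

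Of 5 gap junction genes, 4 were tested, 2 were called higher and 0 lower, and 0 were lower at an unadjusted p under 0.05 or by limma voom. Gja5, a connexin known from arterial endothelium, had 8.97, 5.96 and 8.32 RPKM in Ctrl and 17.4, 29.4 and 31.1 RPKM in NICeCA libraries (log2 fold change 1.60, SE 0.24, adjusted p = 0.015 in limma). Gja4, another arterial connexin, had 7.26, 5.56 and 4.78 RPKM in Ctrl and 11.1, 16.3 and 19.4 RPKM in NICeCA libraries (log2 fold change 1.26, SE 0.22, adjusted p = 0.021 in limma). Unlike most of the 10 genes, both were well below every NICeCA library in Ctrl replicate 1. Without NICeCA replicate 2 neither was called (limma adjusted p = 0.076 and 0.096), at log2 fold changes of 1.49 and 1.21. Gja1 and Gjc1 were not called (log2 fold changes 0.23 and -0.34). Of 19 surface partners and ligands, 16 were tested and 0 were called in either direction, with 3 higher and 0 lower at an unadjusted p under 0.05, 0 by limma voom, and a median near 0. Without Ctrl replicate 1, 4 of them were called higher. Mcam, an endothelial adhesion molecule, had 26.7 to 62.9 RPKM in Ctrl and 51.0 to 77.1 RPKM in NICeCA libraries (log2 fold change 0.67, limma adjusted p = 0.16), and the phosphatase gene Ptpn6 had a log2 fold change of 0.03.

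Gene length moved with these differences. The 4 partners called lower have gene models of 5061 to 8019 bases, and of the 2052 tested rows of at least 5000 bases 19.4% were called lower and 1.27% higher, against 5.34% and 6.81% of the shorter rows. With each library's length trend removed, an alternative added after seeing the data, these 4 were no longer called (limma adjusted p from 0.057 to 0.13). Their log2 fold changes were then -0.995 for Pard3, -0.62 for Pvrl1, -0.40 for Mllt4 and -0.25 for Ctnnd1, so that the values of Pard3 and Pvrl1 shrank by a smaller share than those of Mllt4 and Ctnnd1. In the same fit 4.72% of all tested rows were called higher and Cd93 (6638 bases, log2 fold change 1.10, limma adjusted p = 0.035), Cgnl1 (6754 bases, 0.76, 0.019), Lsr (0.57, 0.049), Gja4 (1.21, 0.036) and Gja5 (1.67, 0.019) were called higher.

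**Figure D4:**
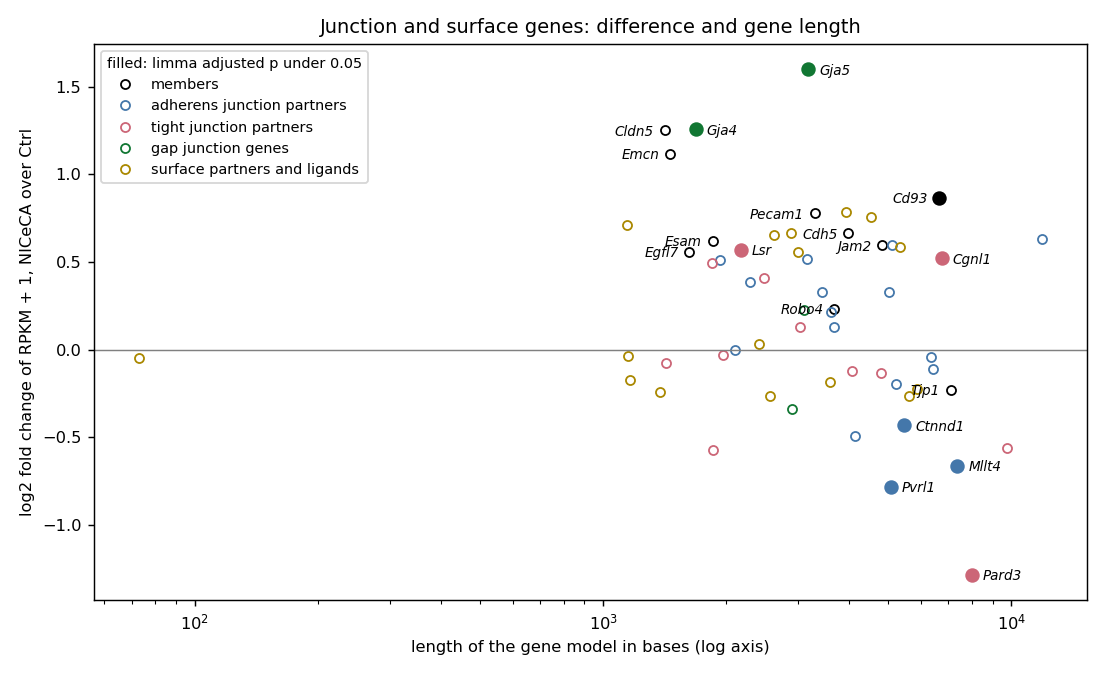
Log2 fold change of RPKM + 1 (vertical axis, NICeCA over Ctrl) against the length of the gene model (horizontal log axis) for the 10 genes (black) and the tested genes of the adherens (blue), tight (red) and gap junction (green) and surface (yellow) lists, with filled points called by limma. The 4 partners called lower are all of at least 5061 bases, and the called genes Cd93 and Cgnl1 are long and higher.

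The label of the samples, tumor endothelial cells, was checked against cell type markers, and other cell types moved with the groups. All 22 endothelial markers had a mean of at least 1 RPKM. Of 8 tested neutrophil markers 7 were called higher and 0 lower, and their summed level was 119 to 273 RPKM in Ctrl and 632 to 1711 RPKM in NICeCA libraries. Of 5 tested platelet markers 2 (Pf4 and Ppbp) were called higher, with sums of 121 to 211 against 1193 to 1325 RPKM. Pf4 made up most of these sums, with means of 130 RPKM in Ctrl and 1017 RPKM in NICeCA libraries. Itga2b, Gp1bb and Itgb3 were not called (log2 fold changes 0.26, -0.26 and 0.75, limma adjusted p = 0.42, 0.50 and 0.089). Macrophage markers had 3 of 10 called higher (Cd14, Cd68 and Fcgr1) and a sum of 3267 to 4469 RPKM in Ctrl and 2802 to 4804 RPKM in NICeCA libraries, above that of the endothelial markers in every library. The log2 fold change was positive for 4 of these 10 and negative for 6, none of which was called, with a median of -0.15. Of 8 tested fibroblast markers 4 were called lower (408 to 669 against 192 to 374 RPKM), and of 9 tested pericyte and smooth muscle markers 3 were called higher (38.8 to 57.4 against 79.9 to 151 RPKM). Of 3 tested lymphatic markers 1 was called, Pdpn, and Ccl21a was at 0 in every library. Of carcinoma cell markers Krt18 was called lower, Cdh1 (1.33 to 7.73 RPKM, log2 fold change 0.51, limma adjusted p = 0.43) was not, and Epcam, Krt8 and Krt19 were under 1 RPKM in every library. Of T and NK cell, B cell and red cell markers 0 of 8, 0 of 3 and 0 of 5 were called. Pecam1, Esam and Cd93 are also found on leukocytes or platelets, and the part of these cells in the values above was not tested.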

How the data were processed

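Total RNA of CD31-captured TECs from 3 Ctrl and 3 NICeCA mice was depleted of ribosomal RNA and sequenced on an Illumina HiSeq. The authors deposited RPKM per library for 56826 rows, of which 33353 are FANTOM3 transcripts; these were left out of the main fit, since they share reads with RefSeq rows. The submitters' processing notes name TopHat2 and mm9, but 99.3% of RefSeq rows with a current symbol overlap that gene in GRCm38, and all 10 members do. The counting tool and strand setting were not given in the sources used here. RPKM multiplied by length came in whole steps for 100.0% of values under 1000 reads (within 0.05 of a step), which gave read numbers. Replicates differed by more than sampling noise (chi-square per degree of freedom at least 55.3).

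From the deposited RPKM, log2(RPKM + 1) was fitted with limma 3.58.1 in R 4.3.3 (eBayes with trend, two-sided, Benjamini-Hochberg) over rows with a mean of at least 1 RPKM, without a block, since the methods speak of 3 pairs of mice but give no paired test and no pair numbers. The exact permutation test has 20 assignments and a smallest p of 0.1. p-values measure the spread between mice. The procedure was tested on simulated data. Their noise was drawn gene by gene, so shifts shared by many genes of a library were not covered. The members and lists were chosen with earlier results of these data known, and the lists, written from general knowledge, are described by counts and medians. Named are all members, the called genes of each junction or surface list (at most 5) and its 2 most abundant others, the 5 rows most like the members, and neighbours. Endothelial, lymphatic, pericyte and smooth muscle, fibroblast, macrophage, neutrophil, T and NK cell, B cell, platelet, red cell and carcinoma markers were counted likewise. Alternatives comprised pseudocount, filters, scaling, block, trend, FANTOM3 rows, single libraries left out, limma voom and an endothelial covariate. Added after seeing the data were removal of the length trend (lowess) and subtraction of the endothelial mean.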

Additional observations from a re-analysis of the deposited data

How the results depend on the processing

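The number of the 10 genes called higher was 1 in the fit reported. It fell to 0 with no filter, quantile normalization, the replicate block, the endothelial covariate and the endothelial subtraction, and was between 0 and 7 with a single library left out. Over all genes, 725 higher and 946 lower became 260 and 105 with no filter, 446 and 325 with quantile normalization, 327 and 209 with the replicate block, 0 and 0 with the endothelial covariate and 49 and 568 with the subtraction. The number lower was 579 at a mean of at least 5 RPKM, 2185 with FANTOM3 rows and 221 with the length trend removed. With a single library left out the counts ran from 17 to 911 higher and from 1 to 832 lower. Of all calls, 43.4% were higher with the values as deposited, 57.8% with quantile normalization, 58.5% with trimmed mean scaling, 72.4% with the length trend removed and 33.8% with limma voom.

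Adherens junction partners called lower went from 3 to 0 with no filter, the replicate block, the covariate and the length trend removed, and to 1 with quantile normalization and the subtraction. With a library left out they were 0 to 1, and those called higher 0 to 3. Tight junction partners called higher went from 2 to 0 with no filter, the replicate block, the covariate and the subtraction, and to between 0 and 1 with a library left out. The 1 called lower went to 0 with no filter, with the minimum mean at 5 RPKM (which removes Pard3 from the test), the covariate and the length trend removed, and was 0 to 1 with a library left out. The 2 gap junction genes went to 1 with no filter and to 0 with the covariate and the subtraction, and were 0 to 2 with a library left out. Surface partners called higher were 0 to 4 with a library left out.

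Directions turned, none of them called, with the covariate for Cdh5 (-0.092), Esam (-0.096), Jam2 (-0.17), Egfl7 (-0.14) and Robo4 (-0.51), and with the subtraction for Jam2 (-0.012), Egfl7 (-0.048), Robo4 (-0.38), Lsr (-0.039) and Cgnl1 (-0.087), against a median of -0.66 over all genes in that fit. With a single library left out, Robo4 ran from -0.070 (without Ctrl replicate 2) to 0.62 (without Ctrl replicate 1), and Tjp1 from -0.41 (without NICeCA replicate 3) to 0.015 (without NICeCA replicate 1). Tjp1 was at 0.026 with the length trend removed and at -0.84 with the subtraction. The median of the 10 genes moved from 0.64 to -0.094 with the covariate and to 0.035 with the subtraction. Apart from these, the 10 genes and the 8 partners called kept their direction in every alternative. The replicate numbers gave no sign of pairing. Libraries of the same number had correlations of 0.12, -0.34 and -0.18 in their deviations from the group means. Not every library correlated best with its own number. With 3 libraries a group, this check cannot show that the mice were unpaired. Under the replicate block Cd93 had an adjusted p of 0.065 (limma). The causes were not tested. With 3 libraries a group, the spread between mice and not the read depth limits what can be called.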
